A study of Mus musculus with 21 samples.

Results

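A set of 10 genes that switch cells between a mesenchymal and an epithelial state was followed through the chemical conversion of mouse fibroblasts into hepatocyte-like cells. Members were taken by gene name from 54532 annotated genes, and all 10 were found and passed the filter on low counts in the fits within 1 count table and in the fit across all libraries. In fits on 2 groups only, Esrp1 and Grhl2 (pHeps against MEF) and Prrx1 (NSF-CiHeps against pHeps) were below it. The 7 mesenchymal regulators were Snai1, Snai2, Zeb1, Zeb2, Twist1, Twist2 and Prrx1. The 3 epithelial regulators were Esrp1, Esrp2 and Grhl2. Counts came from 21 libraries of polyadenylated RNA in 7 groups.

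Epithelial cells adhere through E-cadherin and sit in sheets, while mesenchymal cells such as fibroblasts are separate and motile. Snail, Zeb and Twist proteins are transcription factors that repress E-cadherin and other junction genes, and Prrx1 is a homeobox factor of embryonic mesenchyme. Esrp1 and Esrp2 are RNA-binding proteins that splice transcripts into their epithelial isoforms, and Grhl2 is a grainyhead-type factor that activates junction genes and is known to oppose Zeb1. TGF-beta signalling is a classical inducer of the mesenchymal program. Hepatocytes are epithelial cells, so a fibroblast that becomes one has to pass through a mesenchymal-to-epithelial transition.

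All cells were wild type. MEF (3 libraries) were embryonic fibroblasts in DMEM with 10% FBS. C6FAE (3) were MEF in medium with serum, serum replacement and bFGF at 50 ng/ml, to which 5 compounds were added. These were CHIR99021 at 20 µM, which blocks GSK3, 616452 at 10 µM, which blocks the TGF-beta receptor kinase, Forskolin at 50 µM, which raises cAMP, AM580 at 0.05 µM, which activates retinoic acid receptors, and EPZ004777 at 5 µM, which blocks the histone methyltransferase DOT1L. C6F(L) (3) were MEF in hepatocyte medium with 1 µM dexamethasone, 10 mM nicotinamide, FGF4 at 10 ng/ml, and HGF and EGF at 20 ng/ml each, plus the first 3 compounds named above, at those doses during 4 days and afterwards at 3 µM for CHIR99021 and 2 µM for the other 2. The C6FAE-C6F(L) group (4), called the two-step group, had C6FAE first and C6F(L) from day 4 on. In C6F5UE-C6F(L)V (3), AM580 was replaced by CH55 at 1 µM, which acts on the same receptors, and UNC0638 at 0.05 µM, which blocks G9a-type methyltransferases. Vitamin C at 50 µg/ml was added to its C6F(L) stage. NSF-CiHeps (3) were neonatal skin fibroblasts taken through that same protocol. Hepatocytes from liver, cultured for 2 days after isolation, made up pHeps (2). The labels give no day of collection for induced cells and do not say whether libraries came from separate cultures or animals, so p-values measure only the spread between these libraries.

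Libraries held 9180939 to 12319883 counts. Levels are in CPM, counts scaled to the library total after TMM correction, and levels of different genes are compared only as CPM per kilobase of gene length. A gene was called when the adjusted p of edgeR's quasi-likelihood test fell under 0.05 with a log2 fold change of 1 or more in either direction. In bulk RNA, fewer cells of a type and less RNA per cell cannot be told apart. Of the hepatocyte markers Alb, Ttr, Apoa1, Hnf4a, Tat and Serpina1a, the sum was 20600 to 21800 CPM in pHeps and 20700 to 27500 in C6F5UE-C6F(L)V. It was only 266 to 2070 CPM in NSF-CiHeps and 418 to 1360 in the two-step group. The keratinocyte markers Krt5, Krt14, Krt6a, Dsg3, Trp63 and Krt1 summed to 8360 to 15300 CPM in the two-step group and to at most 199 CPM in any other library. Of the 21 libraries, 2 stood apart from their groups. Two-step replicate 4 carried 2720 CPM of 6 fibroblast markers (Col1a1, Col1a2, Thy1, Pdgfra, Dcn, Lum) against 359 to 1130 CPM in the other 3. NSF-CiHeps replicate 3 carried 266 CPM of hepatocyte markers against 1620 and 2070 in the other 2. Most called fold changes that involve these groups are given with and without that library.

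Start sites of the Twist and Snai1 genes, which were higher in C6FAE than in MEF, are shown with that of Prrx1, which was not called there. The 3 windows of 250 bases and the 190 bases of Prrx1 end at the base before the annotated start, read 5′ to 3′ on the gene's strand from RefSeq tables (GRCm38.p6). RefSeq windows were matched for 5 of 10 regulators, and that of Zeb2 is not shown. Capitals mark matches, on either strand, to 6 motifs that were searched: the E-box CACCTG bound by Snail and Zeb proteins, the cAMP response element core TGACG, the retinoid receptor motif AGGTCA, the TCF/LEF motif CTTTGA, the CCAAT box and the TATA box TATAAA. Snai1 lies at chr2:167537945-167538194 (+), Twist1 at chr12:33957421-33957670 (+), Twist2 at chr1:91801211-91801460 (+) and Prrx1 at chr1:163313711-163313900 (-).
Snai1: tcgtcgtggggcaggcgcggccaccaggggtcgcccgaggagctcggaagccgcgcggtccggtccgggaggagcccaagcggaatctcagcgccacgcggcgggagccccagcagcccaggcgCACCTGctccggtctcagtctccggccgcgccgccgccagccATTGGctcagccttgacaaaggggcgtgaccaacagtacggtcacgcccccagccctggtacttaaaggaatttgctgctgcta
Twist1: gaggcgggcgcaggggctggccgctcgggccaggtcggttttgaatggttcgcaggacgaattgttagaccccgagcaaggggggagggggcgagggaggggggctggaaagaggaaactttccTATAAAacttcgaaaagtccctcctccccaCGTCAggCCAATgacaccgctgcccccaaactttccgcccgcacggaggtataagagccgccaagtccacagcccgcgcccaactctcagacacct
Twist2: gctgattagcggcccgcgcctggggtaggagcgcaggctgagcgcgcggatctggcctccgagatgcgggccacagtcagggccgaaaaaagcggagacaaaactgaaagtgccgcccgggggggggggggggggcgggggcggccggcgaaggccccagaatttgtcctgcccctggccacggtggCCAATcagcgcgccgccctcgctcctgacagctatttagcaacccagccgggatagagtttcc
Prrx1: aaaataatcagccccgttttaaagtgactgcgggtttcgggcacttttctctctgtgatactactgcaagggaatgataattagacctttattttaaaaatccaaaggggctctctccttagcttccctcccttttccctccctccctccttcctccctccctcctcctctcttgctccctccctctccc
The Snai1 window held an E-box 126 to 121 bases before the start, letters that 17.2% of all 32851 windows of this length hold, and a CCAAT box on the other strand 84 to 80 bases before it. In Twist1 a TATA box lay 126 to 121 bases before the start, a cAMP response element core on the other strand 96 to 92 and a CCAAT box 89 to 85 bases before it. The Twist2 window held a CCAAT box 63 to 59 bases before the start. The CCAAT box was in 33.8% of all windows, the cAMP core in 17.8%, the TATA box in 12.4%, the retinoid motif in 14% and the TCF/LEF motif in 13.8%. None of the 6 was in the shorter Prrx1 window, where they occur in 13.8% (E-box), 11.7% (cAMP core), 10.8% (retinoid), 11.3% (TCF/LEF), 26.7% (CCAAT) and 8.73% (TATA) of windows. The bases G and C made up 70.0% of the Snai1 window, 62.4% of Twist1, 68.8% of Twist2 and 48.9% of Prrx1, against a median of 52.4% over all windows. The matches describe letters and show no binding.

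In MEF, per kilobase, Twist1 (52.0 ± 3.42, SD, n = 3) and Prrx1 (49.8 ± 1.16) stood highest of the 10 regulators. Snai2 (25.9 ± 2.25), Snai1 (17.4 ± 1.79), Zeb2 (10.5 ± 0.255), Zeb1 (8.54 ± 0.306) and Twist2 (4.23 ± 0.599) followed. Esrp2 was at 0.396 ± 0.163 CPM per kilobase, and no count of Esrp1 or Grhl2 was found in the 3 libraries. MEF thus held the mesenchymal set with almost none of the epithelial one.

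**Figure D1:**
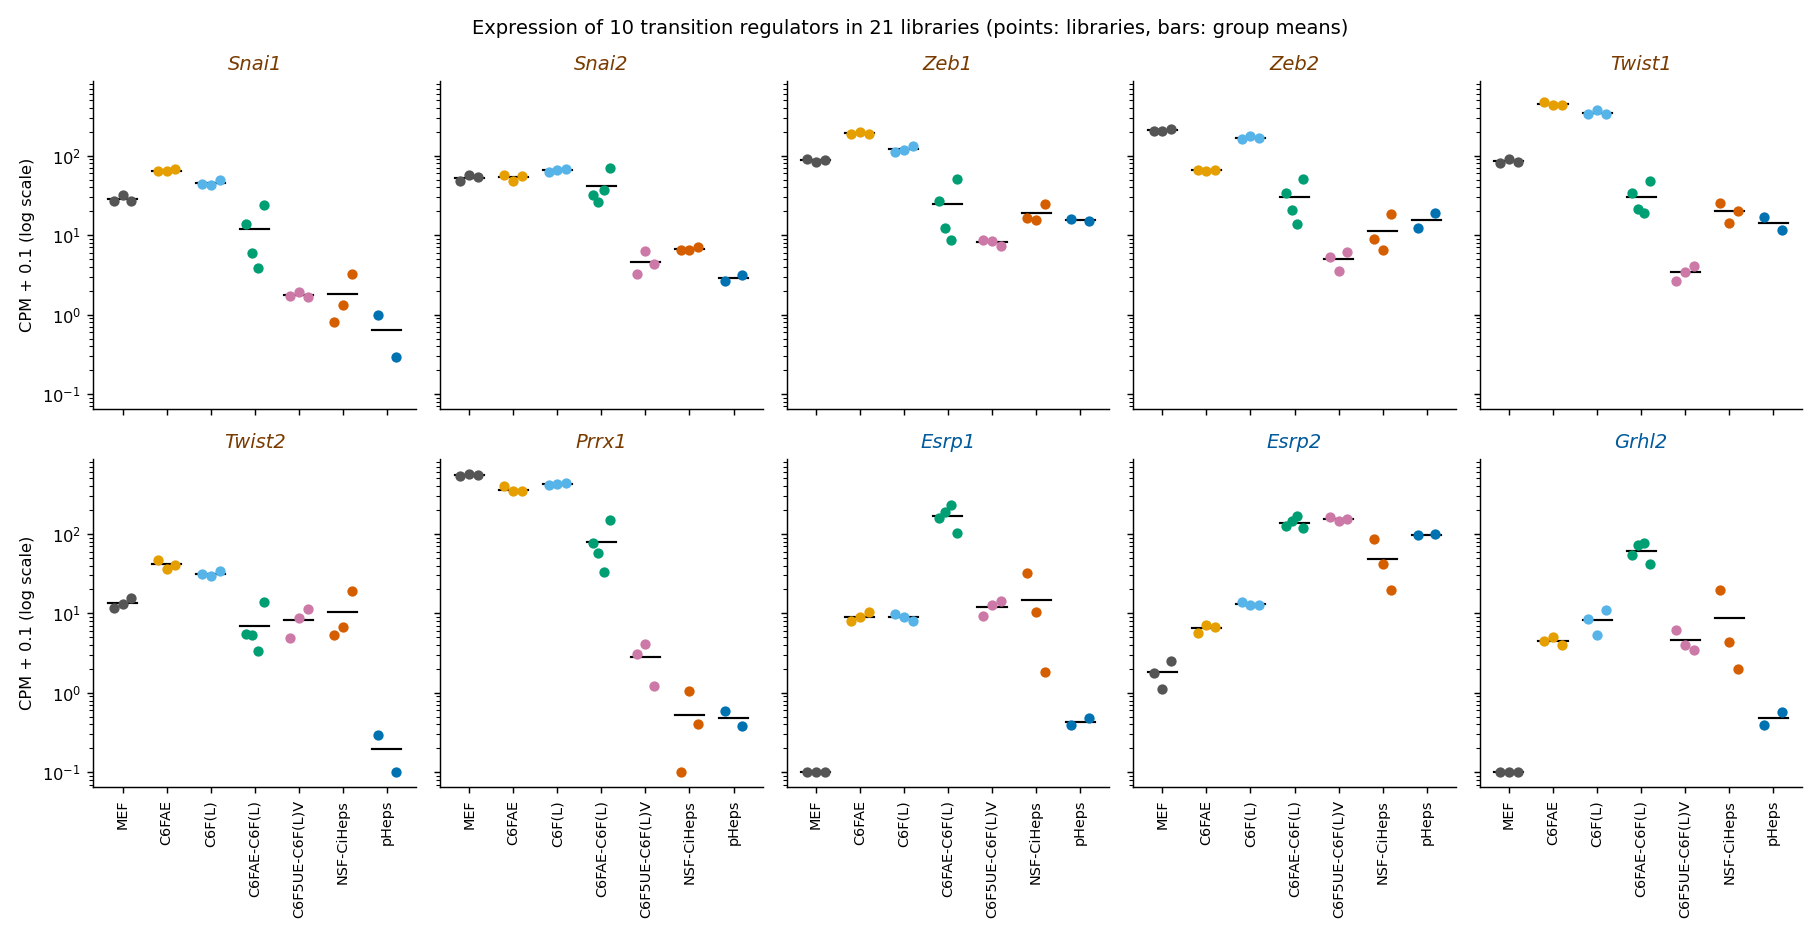
Level of each regulator in each of 21 libraries as CPM plus 0.1 on a log axis, by group, with points for libraries and bars for group means. Esrp1 and Grhl2 sit at 0 CPM in MEF and peak in C6FAE-C6F(L), where the 4 libraries hold 103 to 230 CPM of Esrp1. The 7 mesenchymal genes are lower in pHeps than in MEF, without a steady fall between them. Twist1, for example, has group means of 84.6 CPM in MEF, 448 in C6FAE, 3.29 in C6F5UE-C6F(L)V and 14.3 in pHeps.

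The first comparison was of MEF given C6FAE with untreated MEF. Of 7 mesenchymal regulators 3 were called higher, 1 (Zeb2) was called lower and 3 were not called, and the 3 epithelial regulators were called higher. In all 6 of 10 were higher, where 15.6% of all tested genes were, and 1 was lower, against 14.7% of genes. Twist1, which drives mesenchymal fate in the embryo, read 80.2, 90.9 and 82.8 CPM in MEF and 470, 434 and 440 CPM in C6FAE. Its log2 fold change was 2.41 (SE 0.27, adjusted p = 1.6e-05). Twist2, its close relative, read 11.7, 13.1 and 15.5 CPM in MEF and 46.4, 36.5 and 40.7 in C6FAE, a log2 fold change of 1.62 (SE 0.37, adjusted p = 0.00265). For both Twist genes every C6FAE library was above every MEF library.

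Snai1, an E-cadherin repressor that TGF-beta can induce, read 26.6, 31.6 and 26.6 CPM in MEF and 63.4, 63.5 and 67.9 in C6FAE. The log2 fold change was 1.21 (SE 0.45, adjusted p = 0.0382), and the call was lost whenever any 1 of the 6 libraries was left out. Over 12 alternatives its value ran from 1.16 to 1.30 and its adjusted p from 5.4e-12 to 0.103. Its relative Snai2, known for its part in neural crest migration, read 47.4, 56.4 and 53.1 CPM in MEF and 57.4, 47.9 and 55.7 in C6FAE. The Snai2 libraries overlapped and the log2 difference was 0.04 (SE 0.27, adjusted p = 0.909).

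The Zeb genes, zinc-finger repressors of E-cadherin, went apart. Zeb1 read 89.6, 84.0 and 89.3 CPM in MEF and 186, 198 and 189 in C6FAE, while Zeb2 read 207, 205 and 215 in MEF and 65.3, 63.6 and 66.2 in C6FAE. The groups did not overlap for either gene. Zeb2 fell, with a log2 fold change of -1.68 (SE 0.33, adjusted p = 0.00117). Zeb1 had 1.13 (SE 0.45, adjusted p = 0.0515) and was not called, but 5 of 12 alternatives called it, among them the fit on these 2 groups only (adjusted p = 1.8e-14, range over the alternatives to 0.122). This estimate of spread includes the two-step group, whose libraries ran from 8.64 to 51.1 CPM of Zeb1. Prrx1 read 539, 565 and 550 CPM in MEF and 398, 343 and 345 in C6FAE, all lower, with a log2 difference of -0.6 (SE 0.38, adjusted p = 0.198). Over 12 alternatives its value ran from -0.67 to -0.50, under the fold limit, and its adjusted p from 3.3e-09 to 0.333. The macrophage markers C1qa, C1qb, C1qc, Csf1r, Adgre1 and Cd68 summed to 1200 to 1540 CPM in MEF and 8.57 to 11.1 in C6FAE, with C1qa, C1qb, C1qc and Adgre1 at 0 there. Neural crest and melanocyte markers summed to 214 to 215 CPM in MEF and 34.3 to 37.1 in C6FAE, with 5 of 6 called lower. Endothelial markers summed to 10.8 to 12.8 CPM in MEF and 69.3 to 80.7 in C6FAE, with 2 of 5 tested called higher and 1 lower. In C6F(L), where Zeb2 read 161 to 179 CPM, the macrophage markers summed to 8.59 to 11.3 CPM. The neural crest and melanocyte markers summed there to 64.4 to 71.3 CPM and the endothelial markers to 22.2 to 30.7 CPM. The part of these cells in the Zeb2 difference was not tested.

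The epithelial regulators appeared at low levels in C6FAE. Esrp1 was at 0 counts in MEF and read 7.92, 8.84 and 10.2 CPM in C6FAE, at least 104-fold higher against a floor of 3 counts over the MEF group. Grhl2 was likewise at 0 and read 4.36, 4.92 and 3.85 CPM, at least 50.8-fold higher. Because the floor rests on the depth of the 3 MEF libraries, the bounds fell to 68.7 and 33.5 without MEF replicate 3, and to at most 70.5 and 34.4 without another MEF library. Esrp2 read 1.69, 1.03 and 2.44 CPM in MEF and 5.58, 7.01 and 6.69 in C6FAE, a log2 fold change of 1.9 (SE 0.24, adjusted p = 4.3e-05). All 3 were above MEF in every C6FAE library. Per kilobase they summed to 3.05 to 3.61 CPM in C6FAE, next to 395 to 428 CPM for the mesenchymal set, which was 161 to 177 in MEF. Twist1 alone held 267 to 289 CPM of the mesenchymal sums in C6FAE and 49.3 to 55.8 of those in MEF.

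Lists of genes linked to the epithelial and mesenchymal states were split in C6FAE. Target is the name of a list here, and whether the regulators act on each gene was not tested. Of 19 epithelial junction genes 18 were higher and 1, the plakoglobin gene Jup (-1.17), was lower, with a list median of 5.76 (5.69 with the 2 genes at 0 in a group set to their bound) against 0.02 over all genes on the log2 scale. Cdh1, which encodes E-cadherin, was at 0.721 ± 0.362 CPM in MEF and 51.9 ± 1.33 in C6FAE (SD, n = 3). Of 18 mesenchymal target genes 12 were lower, such as the smooth muscle gene Tagln (-3.12), and 1, the growth factor receptor gene Pdgfra (2.3), was higher (median -1.5). Of 14 genes of the TGF-beta pathway 5 were lower, among them the matrix gene Ltbp2 (-5.6), and 1, the ligand Tgfb2 (3.16), was higher (median -0.22). Of 11 other epithelial transcription factors 8 were higher and 1, Klf4 (-1.29), was lower (median 3.38). Of 12 other mesenchymal transcription factors 3 were higher, such as Fosl1 (1.8), and 1, Gsc (-1.39), was lower (median 0.43). Of 8 other splicing factors of epithelial and mesenchymal exons 1, Mbnl1 (-2.63), was lower and 0 were called higher (median -0.5). The lists were chosen with earlier results of these data known.

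MEF kept in C6F(L) alone were compared with MEF next. Of 10 regulators 5 were called higher (10.6% of all genes were) and 0 lower (12.4% of all genes), with 0 called lower by DESeq2. An unadjusted p below 0.05 was found for 5 of the 10 regulators and for 8398 of all 16535 genes. Twist1 read 331, 372 and 334 CPM (log2 fold change 2.03, SE 0.27, adjusted p = 9.1e-05), all above the MEF values. Twist2 read 31.2, 29.1 and 33.8 CPM (1.22, SE 0.36, adjusted p = 0.0171), also above, and lost its call without MEF replicate 1 (1.13, adjusted p = 0.0637) or 2 (1.21, adjusted p = 0.0551), with adjusted p from 1.4e-07 to 0.0637 over its alternatives. Esrp1 read 9.76, 8.80 and 7.95 CPM, at least 102-fold above MEF. Grhl2 read 8.49, 5.20 and 11 CPM, at least 95.8-fold above MEF (67.4 and 63.1 without MEF replicate 3, 68.1 to 69.3 and 63.7 to 64.8 without another), and Esrp2 13.7, 12.8 and 12.5 CPM (2.91, SE 0.24, adjusted p = 2.2e-06). Every epithelial value was above every MEF value.

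The remaining mesenchymal regulators were not called in C6F(L). Snai1 read 44.5, 42.4 and 49.2 CPM (log2 difference 0.68, SE 0.45, adjusted p = 0.24) and Zeb1 112, 117 and 134 (0.47, SE 0.45, adjusted p = 0.432). Snai2 read 61.9, 66.7 and 67.3 CPM (0.32, SE 0.27, adjusted p = 0.37). These 3 lay above all MEF libraries. Zeb2 read 161, 179 and 165 CPM (-0.31, SE 0.32, adjusted p = 0.467) and Prrx1 408, 420 and 434 (-0.39, SE 0.38, adjusted p = 0.432), both below all MEF libraries. The estimate of spread again includes the two-step group. Over 12 alternatives adjusted p ran from 6.1e-06 to 0.388 (Snai1), 7.3e-06 to 0.6 (Zeb1) and 0.00069 to 0.571 (Snai2). It ran from 8.3e-05 to 0.609 for Zeb2 and from 1.1e-06 to 0.559 for Prrx1. All their log2 differences stayed under the fold limit. Of the same lists, 18 of 19 junction genes were higher and Jup (-1.15) was lower. Of 18 mesenchymal targets 6 were lower (Fap, -2.93) with 0 higher, and 6 of 14 TGF-beta genes were lower and 2 higher. Of other epithelial factors 8 of 11 were higher and 0 lower. Of other mesenchymal factors 2 of 12 were higher and 4 lower, and of 8 splicing factors Mbnl1 (-1.19) was lower.

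Between C6FAE and C6F(L), 0 regulators were called higher in C6FAE (13.6% of all genes were) and 2 lower (10.4% of genes). Below an unadjusted p of 0.05 were 3 regulators and 8643 of all 16535 genes. Zeb2 was lower in C6FAE (log2 fold change -1.36, SE 0.33, adjusted p = 0.00536). Esrp2 was lower as well (-1.01, SE 0.2, adjusted p = 0.00156), at the edge of the fold limit: 5 of 12 alternatives took it under the limit, among them leaving out C6FAE replicate 1 (-0.91, adjusted p = 0.0103) or C6F(L) replicate 1 (-0.97, adjusted p = 0.00723). Its values ran from -1.07 to -0.89 and its adjusted p from 1.7e-05 to 0.0103. DESeq2 called 0 higher and only Zeb2 lower. Esrp1 differed by 0.03 (SE 0.27, adjusted p = 0.946), and Grhl2 by -0.9 (SE 0.31, adjusted p = 0.0358), under the fold limit except without C6F(L) replicate 2 (-1.15, adjusted p = 0.0115).

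**Figure D2:**
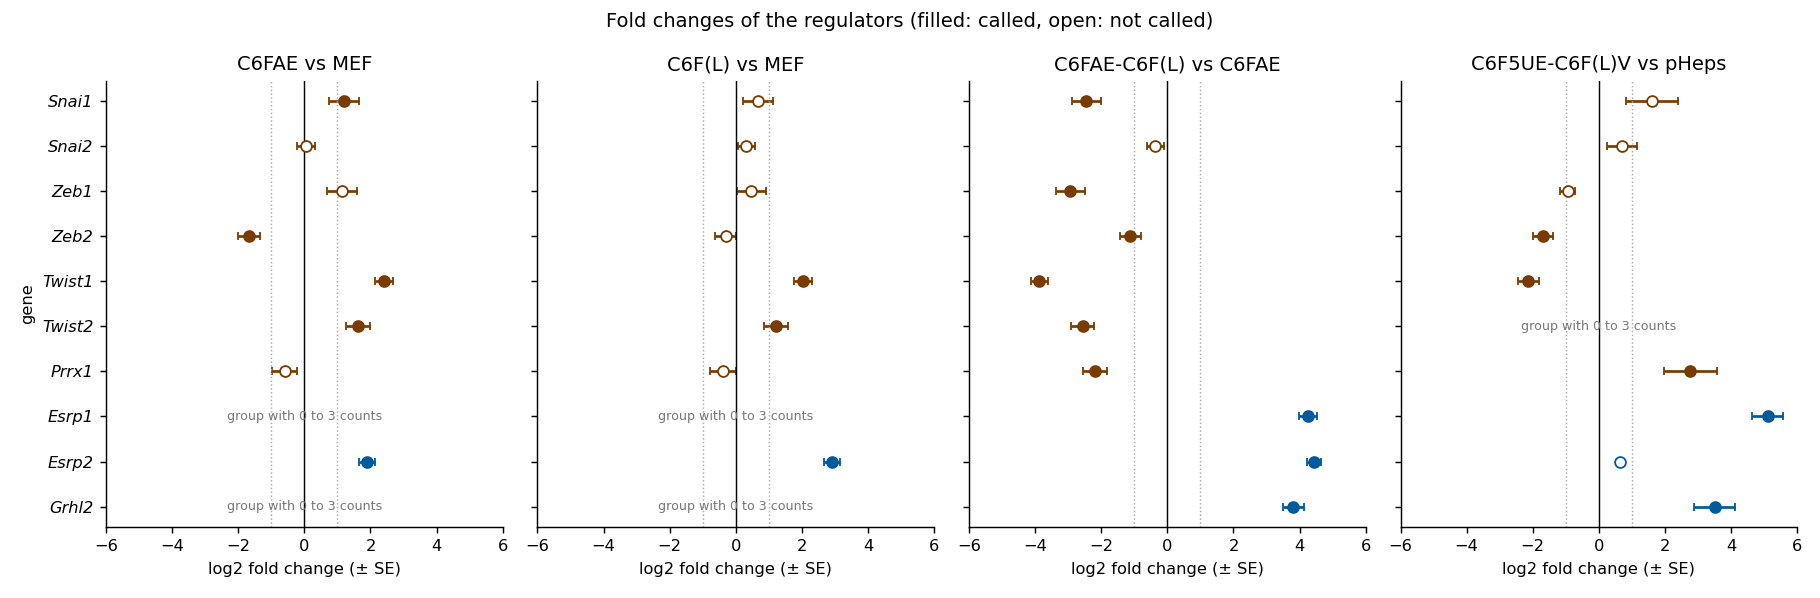
Log2 fold change of each regulator with its SE in 4 comparisons within 1 count table, brown for mesenchymal and blue for epithelial genes, with dotted lines at the fold limit of 1. Twist1 and Snai1 are above 0 in C6FAE against MEF and below -2 in C6FAE-C6F(L) against C6FAE, while Esrp2 is above 0 in both.

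In the two-step group, which was switched from C6FAE to C6F(L), 6 of 7 mesenchymal regulators were called lower than in C6FAE (17.6% of all genes were) and the 3 epithelial regulators were called higher (16.1% of genes). Twist1 read 33.4, 21.4, 19.0 and 48.2 CPM in replicates 1 to 4 (log2 fold change -3.87, SE 0.26, adjusted p = 1.8e-07). Zeb1 read 26.6, 12.3, 8.64 and 51.1 CPM (-2.94, SE 0.44, adjusted p = 1.1e-04), and Twist2 5.39, 5.27, 3.25 and 13.7 CPM (-2.56, SE 0.35, adjusted p = 5.3e-05). For these 3 genes each library lay below every C6FAE library, and replicate 4 was the highest of the 4.

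Snai1 read 13.6, 5.86, 3.81 and 24.0 CPM (-2.45 against C6FAE, SE 0.43, adjusted p = 3.8e-04). Prrx1 read 77.2, 57.9, 33.0 and 151 CPM (-2.18, SE 0.36, adjusted p = 2.4e-04). Zeb2 read 33.6, 20.4, 13.9 and 51.4 CPM (-1.12, SE 0.31, adjusted p = 0.00803). The Zeb2 call was lost without two-step replicate 2 (-0.99, adjusted p = 0.0199) or 3 (-0.90, adjusted p = 0.00579), with adjusted p up to 0.0442 over its alternatives. Snai2 stood out from the other 6: at 32.2, 26, 37.1 and 70.0 CPM it overlapped C6FAE, replicate 4 lying above every C6FAE library, and had a log2 difference of -0.37 (SE 0.26, adjusted p = 0.235). Without replicate 4 the same numbers of regulators, 6 lower and 3 higher, were called. The lower genes then had -1.51 (Zeb2), -2.68 (Prrx1), -3.05 (Snai1), -3.14 (Twist2), -3.58 (Zeb1) and -4.17 (Twist1).

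Epithelial regulators reached their highest Esrp1 and Grhl2 levels of the series in the two-step group. Esrp1 read 158, 189, 230 and 103 CPM (4.25 against C6FAE, SE 0.27, adjusted p = 6.5e-07), and no library of another group exceeded 32.4 CPM. Grhl2 read 53.6, 73.1, 76.4 and 42.3 CPM (3.81, SE 0.31, adjusted p = 3.1e-06), with at most 19.6 CPM elsewhere. Esrp2 read 126, 146, 166 and 117 CPM (4.44, SE 0.21, adjusted p = 1.5e-08). Replicate 4 was the lowest of the 4 libraries for all 3. Without it they had 4.43 (Esrp1), 3.96 (Grhl2) and 4.52 (Esrp2). The keratinocyte marker sum was 18.2 to 26.1 CPM in C6FAE and 8360 to 15300 in the two-step group, where replicate 4 had the highest sum. In C6F5UE-C6F(L)V, with a sum of 1.24 to 9.45 CPM, Esrp2 read 146 to 161 CPM. The part of such cells in the Esrp1 and Grhl2 levels was not tested.

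Against MEF, the two-step group had 5 regulators lower (19.3% of all genes were) and 3 higher (18.2%). The lower ones were Zeb2 (log2 fold change -2.79, SE 0.32, adjusted p = 1.1e-05), Prrx1 (-2.78, SE 0.36, adjusted p = 3.6e-05), Zeb1 (-1.82, SE 0.43, adjusted p = 0.00272), Twist1 (-1.46, SE 0.24, adjusted p = 2.4e-04) and Snai1 (-1.24, SE 0.43, adjusted p = 0.0233). The Snai1 call was lost without MEF replicate 2 (-1.16, adjusted p = 0.0675), without two-step replicate 3 (-0.97, under the fold limit) and in the fit on 2 groups (adjusted p = 0.0931, the highest of 13 alternatives). Esrp1 was at least 1960-fold and Grhl2 at least 706-fold above MEF (1290 and 465 without MEF replicate 3, 1300 to 1320 and 469 to 478 without another), and Esrp2 had 6.34 (SE 0.24, adjusted p = 3.1e-09). Twist2 (-0.94, SE 0.35, adjusted p = 0.0333) missed the fold limit and Snai2 had -0.33 (SE 0.26, adjusted p = 0.282). Without replicate 4, 6 regulators were lower and 3 higher, with Snai1 at -1.85, Zeb1 at -2.45, Zeb2 at -3.19, Prrx1 at -3.29 and Twist1 at -1.77. Twist2 was then added at -1.52 (adjusted p = 1.1e-05), as it was without MEF replicate 1 (-1.06, adjusted p = 0.0427). Its adjusted p ran from 1.1e-05 to 0.113 over the alternatives.

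Against C6F(L) alone, the two-step group also had 6 regulators lower (16.5% of all genes were) and 3 higher (15.5%). Values ran from -1.93 (Snai1, SE 0.43, adjusted p = 0.00219) to -3.49 (Twist1, SE 0.25, adjusted p = 5.6e-07) for the lower genes. They were 2.91 for Grhl2, 3.43 for Esrp2 and 4.28 for Esrp1. Snai2 (-0.65, SE 0.25, adjusted p = 0.0464) was under the fold limit and was the regulator added without replicate 4, at -1.03 (adjusted p = 9.7e-06), for 7 lower in all. Without it the others ran from -2.53 (Snai1) to -3.8 (Twist1), with Zeb1 at -2.92 and Twist2 at -2.75. The comparisons with MEF, C6FAE and C6F(L) share the two-step libraries.

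The test of the difference asked whether the change with C6F(L) was alike on MEF and on cells already given C6FAE. With no day of collection given, earlier C6FAE and time in culture cannot be told apart in it. The change from C6FAE to the two-step group, less that from MEF to C6F(L), was called lower for 7 of 10 regulators (16.8% of all genes were) and higher for 1 (16.2%). It was -5.9 for Twist1 (SE 0.37, adjusted p = 2.3e-07), since Twist1 was higher than in MEF when C6F(L) came first and lower than in C6FAE when it came second. Twist2 had -3.79 (SE 0.51), Zeb1 -3.41 (SE 0.63), Snai1 -3.13 (SE 0.62) and Prrx1 -1.78 (SE 0.52, adjusted p = 0.013). Esrp2 had 1.53 (SE 0.31, adjusted p = 0.00149), a larger rise after C6FAE than on MEF. Without two-step replicate 4 these were -6.21 (Twist1), -4.36 (Twist2), -4.04 (Zeb1), -3.73 (Snai1), -2.29 (Prrx1) and 1.61 (Esrp2). Values for Esrp1 and Grhl2 rest on MEF at 0 counts and depend on the prior count, so they carry no size here. Snai2 (-0.69, adjusted p = 0.148) and Zeb2 (-0.8, adjusted p = 0.161) were not called with all libraries, and without replicate 4 they were (-1.07 and -1.20, adjusted p = 1.6e-04 and 0.00329).

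The same gene lists were then counted in the two-step group. Against C6FAE, 19 of 19 junction genes were higher (median 3.22, against 0.03 over all genes), among them Rab25 (4.75), which serves apical membrane traffic, and 14 of 18 mesenchymal targets were lower with 0 higher (median -2.28), such as the surface glycoprotein gene Thy1 (-4.97). All 11 other epithelial factors were higher, led by Trp63 (6.69), the master factor of stratified epithelium, and Grhl3 (5.59), a grainyhead factor of the epidermis. Of 12 other mesenchymal factors 8 were lower (Foxc2, -4.85) and 1 higher. Of 8 splicing factors Rbm47 (3.18), an RNA-binding protein of epithelia, and Mbnl1 (1.49) were higher. Of 14 TGF-beta genes 4 were lower (Tgfb2, -3.29) and 1 was higher. Against MEF the counts higher and lower were 19 and 0 (junction), 0 and 18 (mesenchymal targets), 10 and 0 (epithelial factors), 1 and 6 (mesenchymal factors), 1 and 3 (splicing) and 0 and 6 (TGF-beta). Cdh1 stood at 770 ± 226 CPM and Vim, the mesenchymal filament gene, at 433 ± 347 CPM (SD, n = 4), against 2980 ± 161 CPM of Vim in MEF.

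**Figure D3:**
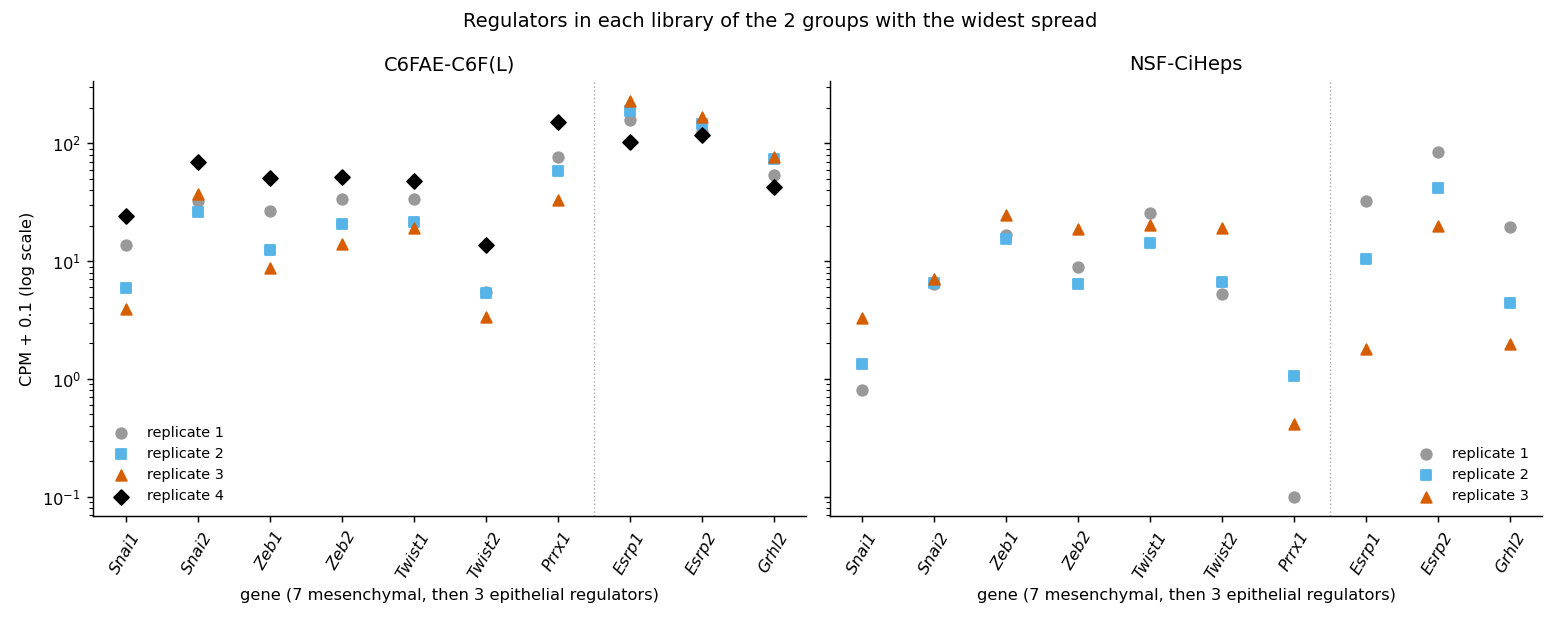
Level of each regulator (CPM plus 0.1, log axis) in each library of the 2 groups with the widest spread. In C6FAE-C6F(L), replicate 4 (black diamonds) is above the other 3 libraries for all 7 mesenchymal genes and below them for all 3 epithelial genes, and in NSF-CiHeps replicate 3 (orange triangles) is above the other 2 for 5 of 7 and below for 3 of 3.

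Replicate 4 of the two-step group was above the other 3 libraries for 7 of 7 mesenchymal regulators, at 1.96 (Twist1) to 3.23 (Zeb1) times their mean. It was below them for 3 of 3 epithelial regulators, at 0.538 (Esrp1), 0.624 (Grhl2) and 0.799 (Esrp2) times their mean. Its fibroblast marker sum moved the same way, while its keratinocyte marker sum, 15300 CPM, was the highest of the 4 and its hepatocyte marker sum of 796 CPM lay within their range. The part of other cells in these differences was not tested.

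The hepatocyte-like cells C6F5UE-C6F(L)V were compared with cultured hepatocytes in the same count table. Of 10 regulators 4 were higher (18.4% of all genes were) and 2 lower (14.7%). Twist1 was lower in the induced cells, at 2.56, 3.31 and 4.02 CPM against 17.0 and 11.6 in pHeps (log2 fold change -2.13, SE 0.32, adjusted p = 8.9e-05). Zeb2 was lower too, at 5.20, 3.40 and 5.98 against 12.3 and 18.9 CPM (-1.69, SE 0.31, adjusted p = 4.5e-04). Neither gene's groups overlapped. Zeb1, at 8.52, 8.41 and 7.22 against 15.7 and 15.1 CPM, lay below as well but under the fold limit (-0.94, SE 0.23, adjusted p = 0.00359). Macrophage markers summed to 581 to 731 CPM in pHeps and 18.1 to 22.2 in the induced cells, where C1qa, C1qb, C1qc and Adgre1 were at 0. Endothelial markers (Pecam1, Cdh5, Kdr, Tek, Emcn, Stab2) summed to 40.4 to 53.6 against 0.945 to 1.19 CPM, with Cdh5 and Emcn at 0 in the induced cells. The part of such cells in the Zeb and Twist1 levels of pHeps was not tested.

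Twist2 ran the other way. It read 4.77, 8.60 and 11.4 CPM in C6F5UE-C6F(L)V and 0.195 and 0 CPM in pHeps, where 2 counts were found, a ratio of 84.0 (95% interval 23.0 to 697, counting error only). Prrx1 read 2.98, 3.97 and 1.13 against 0.488 and 0.283 CPM (2.77, SE 0.8, adjusted p = 0.00986), and lost its call without pHeps replicate 2 (2.43, adjusted p = 0.0685, range over the alternatives 0.0013 to 0.0685). Snai1 (1.62, 1.80 and 1.55 against 0.878 and 0.189 CPM, adjusted p = 0.0974) and Snai2 (3.15, 6.14 and 4.23 against 2.54 and 3.02, adjusted p = 0.211) were not called. For Prrx1, Snai1 and Snai2 every library of both groups lay under every MEF library. The 6 fibroblast markers summed to 83.8 to 105 CPM in C6F5UE-C6F(L)V and 13.2 to 17.9 in pHeps, with 4 called higher in the induced cells and 0 lower. The part of fibroblasts in the Twist2 and Prrx1 levels was not tested.

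Hepatocytes expressed Esrp2 almost alone among the epithelial regulators. It read 96.1 and 99.5 CPM in pHeps and 161, 146 and 152 in C6F5UE-C6F(L)V, a log2 difference of 0.64 (SE 0.1, adjusted p = 1.0e-04) under the fold limit. Esrp1 read 0.293 and 0.377 CPM in pHeps and 9.20, 12.8 and 14.2 in the induced cells (5.11, SE 0.47, adjusted p = 1.1e-06). Grhl2 read 0.293 and 0.472 against 6.13, 3.88 and 3.40 CPM (3.5, SE 0.63, adjusted p = 4.1e-04). The groups did not overlap for any of the 3. In the same direction, 8 of 9 tested epithelial factors were higher in the induced cells and 0 lower, as were 12 of 19 junction genes such as Krt19 (6.82), a keratin of simple ducts, with 1, Cldn3 (-3.69), lower. Of 15 tested mesenchymal targets 8 were higher, such as Acta2 (5.12), and 0 lower, of 8 other mesenchymal factors 4 were higher (Prrx2, 4.75) and 0 lower, of 13 TGF-beta genes 3 were higher (Tgfb3, 2.23) and 0 lower, and of 8 splicing factors Qk (-1.17) was lower.

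The next comparisons cross count tables, so table and group cannot be told apart. Against MEF, C6F5UE-C6F(L)V had 6 regulators lower (26.4% of all genes were) and 3 higher (25.7%). Prrx1 fell most, by 7.66 on the log2 scale (SE 0.57, adjusted p = 2.3e-09), then Zeb2 (-5.42), Twist1 (-4.69), Snai1 (-4.09), Snai2 (-3.54) and Zeb1 (-3.44). Twist2 was the exception at -0.7 (SE 0.48, adjusted p = 0.196), its libraries all below those of MEF, the highest at 11.4 and the lowest MEF library at 11.7 CPM. Esrp1 was at least 138-fold and Grhl2 at least 52.9-fold above MEF (91.0 and 34.9 without MEF replicate 3, 91.9 to 93.5 and 35.2 to 35.8 without another), and Esrp2 had 6.46 (SE 0.44, adjusted p = 7.0e-10). In pHeps, 7 regulators were lower than in MEF (27.2% of all genes were) and 1, Esrp2 (5.82, SE 0.44, adjusted p = 3.5e-09), was higher (24.4%). Twist2 was higher in MEF by a ratio of 140 (38.6 to 1160). Esrp1 and Grhl2, with 7 and 8 counts over pHeps, were 3.9-fold and 4.46-fold above the floor of 3 counts over MEF (2.57 and 2.93 without MEF replicate 3, 2.59 to 2.64 and 2.96 to 3.01 without another). These ratios leave out the counting error of the 7 and 8 counts. Neither gene was called by edgeR, and both were called by DESeq2 (adjusted p = 0.00515 and 0.00295).

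C6F5UE-C6F(L)V was below the two-step group for 8 of 10 regulators (22.8% of all genes were lower) and above it for 0 (19.7% were higher), with 0 called higher by DESeq2. An unadjusted p below 0.05 was found for 8 regulators and for 12433 of all 18605 genes. Both directions of the transition were among the 8 lower regulators. Prrx1 (-4.87, SE 0.51), Twist1 (-3.22, SE 0.31), Snai2 (-3.2, SE 0.29), Snai1 (-2.83, SE 0.55), Zeb2 (-2.62, SE 0.41) and Zeb1 (-1.62, SE 0.41) were lower, and so were Esrp1 (-3.82, SE 0.6) and Grhl2 (-3.77, SE 0.6). Esrp2 (0.14, SE 0.3, adjusted p = 0.702) and Twist2 (0.25, SE 0.45, adjusted p = 0.655) were not called. Without two-step replicate 4 the Zeb1 call was lost (-0.97, adjusted p = 0.00683, under the fold limit), leaving 7. The others then had -4.35 (Prrx1), -2.91 (Twist1), -2.82 (Snai2), -2.22 (Snai1), -2.22 (Zeb2), -3.99 (Esrp1) and -3.9 (Grhl2). Among the other epithelial factors 9 of 11 were lower and 0 higher, and Trp63 was at 0 counts in C6F5UE-C6F(L)V. Of junction genes 10 of 19 were lower (Dsp, -4.54) and 2 higher, the simple-epithelium keratins Krt18 (2.48) and Krt8 (1.73), and of mesenchymal targets 13 of 18 were lower and 0 higher.

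In NSF-CiHeps, made by the protocol of C6F5UE-C6F(L)V from different fibroblasts, the 3 epithelial regulators were more uneven between libraries. Esrp1 read 32.4, 10.4 and 1.71 CPM, Grhl2 19.6, 4.30 and 1.87 and Esrp2 85.1, 41.7 and 19.7 in replicates 1, 2 and 3. The highest library was 18.9, 10.5 and 4.31 times the lowest, against 1.55, 1.80 and 1.10 times in C6F5UE-C6F(L)V. This ratio was also larger in NSF-CiHeps for Snai1 (4.56 against 1.16), Zeb2 (2.94 against 1.76), Twist2 (3.63 against 2.4), Zeb1 (1.62 against 1.18) and Twist1 (1.80 against 1.57). For Snai2 it was smaller (1.10 against 1.95). Replicate 3 was the lowest for all 3 epithelial regulators, and the highest of the 3 libraries for Snai1 (0.699, 1.23 and 3.19 CPM), Snai2 (6.36, 6.41 and 7.0), Zeb1 (16.5, 15.2 and 24.6), Zeb2 (8.85, 6.32 and 18.6) and Twist2 (5.20, 6.59 and 18.9). Twist1 (25.5, 14.1 and 20.2 CPM) and Prrx1 (0, 0.966 and 0.311) did not follow it. The hepatocyte marker sum was also lowest in replicate 3, and its part in these values was not tested.

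Against C6F5UE-C6F(L)V, NSF-CiHeps had 3 regulators higher (12.3% of all genes were) and 2 lower (16.2%). Twist1 (log2 fold change 2.6, SE 0.32, adjusted p = 3.1e-06) was higher and Prrx1 (-2.71, SE 0.76, adjusted p = 0.00659) and Esrp2 (-1.65, SE 0.33, adjusted p = 4.4e-04) were lower, with and without replicate 3 (2.64, -2.51 and -1.23 without it). Zeb1 (1.22, SE 0.43, adjusted p = 0.0253) and Zeb2 (1.22, SE 0.42, adjusted p = 0.0238) were higher and were not called without replicate 3 (1.02 and 0.69, adjusted p = 0.0842 and 0.182). Zeb1 was also lost without C6F5UE-C6F(L)V replicate 3 (1.15, adjusted p = 0.0746), and Zeb2 without its replicate 2 (1.06, adjusted p = 0.0791). In turn, without NSF-CiHeps replicate 3 Grhl2 went from 0.94 (adjusted p = 0.198) to a called 1.46 (adjusted p = 0.0221). Snai1, Snai2, Twist2 and Esrp1 were within 0.55 of 0 on the log2 scale and not called.

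Against pHeps, NSF-CiHeps had 4 regulators higher (17.4% of all genes were) and 1 lower (18.1%). Esrp1 (5.42, SE 1.08, adjusted p = 5.4e-04), Grhl2 (4.45, SE 0.94, adjusted p = 8.6e-04) and Snai2 (1.24, SE 0.37, adjusted p = 0.00827) were higher, and Twist2 had a ratio of 108 (29.7 to 896). Without NSF-CiHeps replicate 3, Esrp1 had 5.99, Grhl2 4.97 and Snai2 1.23. Snai2 was not called without pHeps replicate 1 (1.13, adjusted p = 0.07). Esrp2 was lower (-1.0, SE 0.35, adjusted p = 0.0231), a call that 7 of 11 alternatives lost. It had -0.59 (adjusted p = 0.0689) without NSF-CiHeps replicate 3, -0.91 (0.066) without its replicate 2, and -1.02 (0.0768) and -0.96 (0.0931) without pHeps replicate 1 and 2, and its adjusted p ran from 8.5e-05 to 0.169. The two-step group had 7 regulators above pHeps (26.1% of all genes were) and 0 below (20.8%), with 8 under an unadjusted p of 0.05, as were 12631 of all 18605 genes. The largest was Esrp1 at 8.94 (SE 1.07), then Prrx1 (7.66), Grhl2 (7.28), Snai1 (4.46), Snai2 (3.89) and Twist1 (1.1, SE 0.31, adjusted p = 0.00445), with Twist2 at a ratio of 73.3 (20.1 to 608). Without two-step replicate 4, Esrp1 had 9.11, Prrx1 7.15, Grhl2 7.42, Snai1 3.85 and Snai2 3.51. The median of all genes was 0.16 in that comparison, and Twist1 lost its call without two-step replicate 4 (0.78, adjusted p = 0.00883) or pHeps replicate 2 (0.86, adjusted p = 0.0764). Zeb2 (0.94, adjusted p = 0.0576) gained one without two-step replicate 2 (1.08, adjusted p = 0.0355) or 3 (1.17, adjusted p = 0.0109). DESeq2 called 0 lower there.

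**Figure D4:**
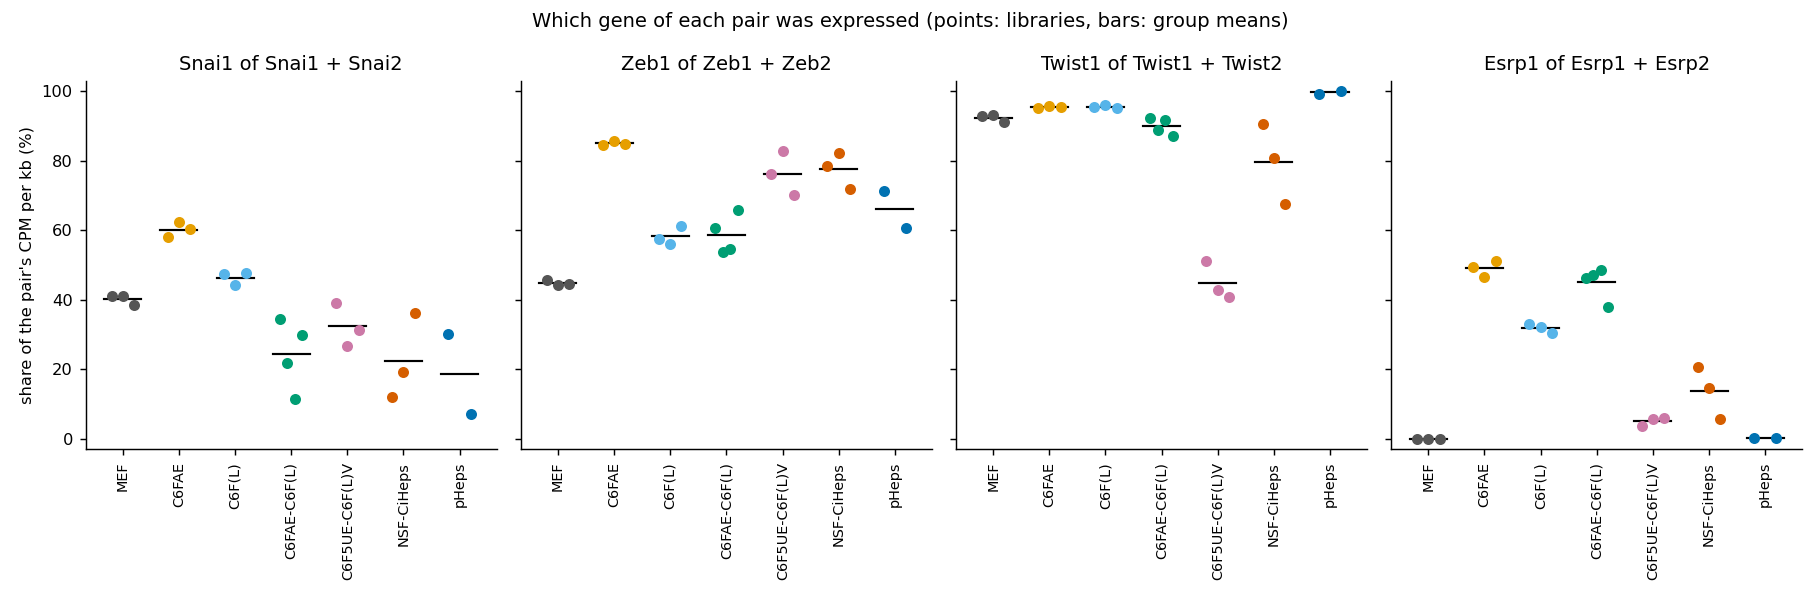
Share of the first-named gene in the summed CPM per kilobase of each related pair, by library (points) and group mean (bars). Esrp1 makes up 37.9% to 48.7% of the Esrp pair in C6FAE-C6F(L) and at most 0.26% in pHeps, and Twist1 makes up 40.7% to 51.1% of the Twist pair in C6F5UE-C6F(L)V.

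Within pairs of related genes, the balance differed between groups. Per kilobase, Esrp1 was 46.5% to 51.2% of the Esrp pair in C6FAE, 30.4% to 33.0% in C6F(L) and 37.9% to 48.7% in the two-step group. It lay between 3.78% and 6.07% in the C6F5UE-C6F(L)V libraries, between 5.63% and 20.8% in NSF-CiHeps, and was 0.209% to 0.26% in pHeps. Libraries of the first protocol held RNA of both Esrp genes, and those of hepatocytes nearly only Esrp2. Zeb1 was 44.3% to 45.7% of the Zeb pair in MEF and 84.7% to 85.8% in C6FAE, with 56.1% to 61.2% in C6F(L). Snai1 was 38.4% to 41.2% of the Snai pair in MEF, 58.0% to 62.3% in C6FAE and 11.4% to 34.5% in the two-step group. Twist1 was at least 87.2% of the Twist pair in the libraries of MEF and the first protocol and at least 99.4% in pHeps, but 40.7% to 51.1% in C6F5UE-C6F(L)V and 67.6% to 90.5% in NSF-CiHeps. These shares are descriptions without a test.

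**Figure D5:**
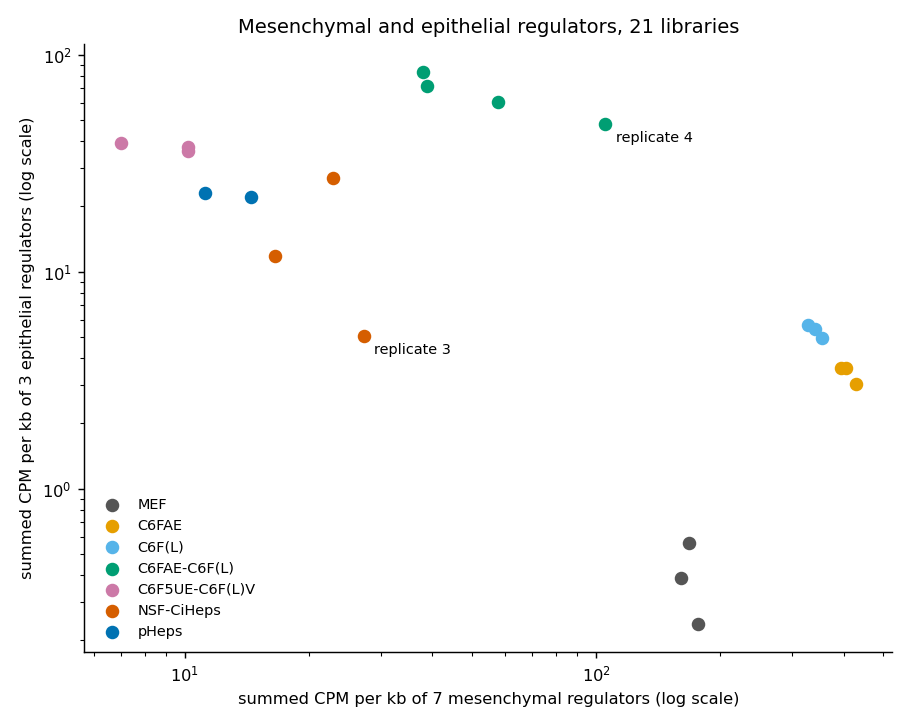
Summed CPM per kilobase of the 3 epithelial regulators against that of the 7 mesenchymal regulators for 21 libraries, both axes logarithmic. C6FAE and C6F(L) lie to the right of MEF and above it, and C6FAE-C6F(L) holds the highest epithelial sums, 48.2 to 83.6 CPM per kilobase, with mesenchymal sums between those of MEF and the hepatocyte-like groups. Of the mesenchymal sums, Twist1 alone is 52.0 CPM per kilobase in MEF, 275 in C6FAE and 212 in C6F(L) (group means).

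Summed per kilobase, the mesenchymal set was at 169 ± 8.02 CPM in MEF, 410 ± 16.8 in C6FAE and 341 ± 14 in C6F(L) (SD, n = 3 each). It was 59.9 ± 31.5 in the two-step group (n = 4), 9.13 ± 1.85 in the C6F5UE-C6F(L)V libraries and 22.2 ± 5.33 in NSF-CiHeps (n = 3 each) and 12.8 ± 2.33 in pHeps (n = 2). The epithelial set was at 0.396 ± 0.163, 3.42 ± 0.318, 5.35 ± 0.375, 66.0 ± 15.2, 37.7 ± 1.60, 14.6 ± 11.2 and 22.6 ± 0.636 in the same order. The epithelial share of both sets was at most 1.71% in each library of MEF, C6FAE and C6F(L). It was 31.6% to 68.8% in the two-step group, 77.9% to 84.9% in the C6F5UE-C6F(L)V libraries, 15.6% to 54.1% in NSF-CiHeps and 60.6% to 67.3% in pHeps. Two-step replicate 4 gave the 31.6%, and the other 3 libraries 51.1%, 65.1% and 68.8%. NSF-CiHeps replicate 3 gave the 15.6%, and the other 2 41.5% and 54.1%.

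Levels of the regulators across the 21 libraries fell into patterns that other genes shared, given as Pearson's r of log2 CPM over the 10411 genes that averaged 10 CPM or more. The libraries share 7 groups and 3 tables, so r mostly follows group means. Prrx1 was most like the matrix genes Mmp2 (0.99), Col1a1 (0.985) and Col6a3 (0.984), and Snai1 like Col6a2 (0.98), Atp1b2 (0.977) and Gpc6 (0.976). Zeb1 was most like the collagen crosslinking enzyme gene Loxl2 (0.984), Hic1 (0.975) and Arhgap28 (0.974), and Zeb2 like Csgalnact1 (0.982), Mmp19 (0.976) and Jam3 (0.973). Snai2 was most like Gli3 (0.978), Col12a1 (0.975) and Maml1 (0.972), Twist1 like Trim32 (0.973), Chsy1 (0.966) and Loxl2 (0.964), and Twist2 like Atp2b4 (0.96), Nbl1 (0.954) and Ndrg3 (0.946). Among the genes nearest to both Esrp1 and Grhl2 were the basolateral sorting adaptor Ap1m2 (0.971 and 0.964) and the desmosome gene Pkp3 (0.965 and 0.976). Esrp2 was most like the tight junction gene Cgn (0.983), Dlk2 (0.969) and Arhgef16 (0.965). Among the regulators themselves, r was 0.983 for Esrp1 with Grhl2, 0.955 for Zeb1 with Twist1 and -0.827 for Zeb1 with Esrp2.

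Genes that overlap a regulator on the other strand make some counts uncertain, since the kit does not mark strand and the counting setting is not given in the sources used here. Gm16136 shares 274 bases with Grhl2 and had 169 to 919 counts in the two-step libraries and 0 in MEF and pHeps. 1810019D21Rik shares 1575 bases with Esrp2 and had 1049 to 1148 counts in C6F5UE-C6F(L)V, 399 to 447 in pHeps and 1 to 7 in MEF, and Nfatc3 shares 219 bases with Esrp2 and had 216 to 1201 counts. Gm29100 shares 1477 bases with Twist2 and had at most 35 counts in a library, and Gm10125 shares 1646 bases with Zeb1 and had at most 27. On GRCm38 the regulators lie on chromosome 2 (Snai1, 167538195 to 167542814, and Zeb2, 44983632 to 45117395), 16 (Snai2, 14705852 to 14709385), 18 (Zeb1, 5591860 to 5775467), 12 (Twist1, 33957671 to 33959829), 1 (Twist2, 91801461 to 91848028, and Prrx1, 163245119 to 163313710), 4 (Esrp1, 11331933 to 11386783), 8 (Esrp2, 106130319 to 106136974) and 15 (Grhl2, 37233036 to 37363569). All 10 are protein-coding and have the same coordinates in GENCODE release 21 for mouse. Exons and introns were not counted separately in the deposited tables.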

How the data were processed

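Per the labels' protocols, poly-A libraries were made from 1 µg of RNA with fragments of 250 to 300 bp. HISAT2 and the build GRCm38 (mm10) are named in the submitters' processing notes, and no counting tool or strand setting is. The deposited tables hold raw counts for 54532 genes in 3 count tables. One MEF column headed with transposed letters was read as MEF replicate 1. Deposited FPKM tables were not used.

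Counts were tested with edgeR 4.0.16 (R 4.3.3): TMM scaling, filterByExpr (minimum count 10, minimum total 15), quasi-likelihood F test, Benjamini-Hochberg adjustment over all genes tested. The fit on 13 libraries was tested, for C6FAE against MEF only, on counts simulated with the same dispersion in every library. The wider spread of the two-step group was not simulated, nor were the fits on 5 and 21 libraries. Fits within 1 table used 13 libraries and 16535 genes (MEF, C6FAE, C6F(L), C6FAE-C6F(L)) or 5 libraries and 15531 genes (C6F5UE-C6F(L)V, pHeps), and fits across them used all 21 libraries and 18605 genes. For a group without counts, 3 counts in all stood as the floor, and ratios over 1 to 3 counts carry exact 95% intervals. The floor covers counting error in the group without counts only, and the intervals cover that in both groups. Neither covers the spread between libraries. Alternatives were DESeq2 1.42.0, other scalings, no filter, no minimum fold, fits on 2 groups, a replicate block and leaving out each library. The members and lists were chosen with earlier results of these data known. Named genes were all 10 members, up to 2 called genes of each list with the largest changes in each direction, unless a group held 0 to 3 counts, up to 3 genes most like each member, and Cdh1 and Vim, which were added after their values were seen. The text names examples from the lists only in the comparisons it describes, the other genes that the rule selects stand in the counts, and a few are not reported here.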

Additional observations from a re-analysis of the deposited data

Results flagged for a closer look

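The change with C6F(L) after C6FAE differed from that on MEF, tested as the log2 change from C6FAE to the two-step group less that from MEF to C6F(L). With no day of collection given, starting state and time in culture cannot be told apart. The difference was -5.9 for Twist1, -3.79 for Twist2, -3.41 for Zeb1, -3.13 for Snai1 and -1.78 for Prrx1, and 1.53 for Esrp2. These 6 had adjusted p between 2.3e-07 and 0.013 in edgeR. The fitted values of -5.39 for Esrp1 and -5.72 for Grhl2 depend on the prior count because MEF held 0 counts of both, so they carry no size. Each group's own values stand in the report. Dixon's criterion was applied only to the two-step group, the only group of 4, and flagged no library for any regulator. Smaller groups, NSF-CiHeps among them, could not be examined by it, and with 4 libraries it finds only extreme values.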

How the results depend on the processing

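Over 1737 recomputed fold changes of the regulators, 1668 kept direction and side of the threshold, 38 lost a call, 20 gained one and 11 changed sign, none of the last a called value. The sign changes came on leaving out a library: Snai2 in C6FAE against MEF (-0.03, -0.01), Esrp1 in C6FAE against C6F(L) (-0.07, -0.05), Twist2 in C6F5UE-C6F(L)V against C6FAE-C6F(L) (-0.05 to 0.83), Snai1 (-0.75 to 0.48), Twist2 (-0.45 to 0.68), Esrp1 (-0.98 to 0.88) and Grhl2 (-0.51 to 1.46) in NSF-CiHeps against C6F5UE-C6F(L)V, and Prrx1 in NSF-CiHeps against pHeps (-1.25, -0.24, up to 0.72). Ranges run over the libraries left out. Of the counts of called regulators, lower in C6FAE than in C6F(L) went from 2 to 1 with DESeq2 size factors, library size only and DESeq2, and to 1 to 3 without 1 library. Higher in pHeps than in MEF went from 1 to 3 with DESeq2. Lower in NSF-CiHeps than in pHeps went from 1 to 0 with library size only, no filter and 2 groups only, and to 0 to 1 without 1 library. The cause was not tested. Without a minimum fold, 17 of 28 counts over all genes changed by over 1.5 times (2583 higher to 4590 in C6FAE against MEF). Scaling by library size only moved the median of all genes in C6FAE against MEF from 0.02 to 0.12, and the regulators called there gained Zeb1 (1.23). With the replicate block, 5 of 140 fold changes gained a call (Zeb1 in C6FAE against MEF, adjusted p = 0.00241, and Twist2 in C6FAE-C6F(L) against MEF, -1.52, among them) and 2 lost it. Replicate number 4 exists in the two-step group only, so the block also takes away that library's weight: Twist2 had the same -1.52 on leaving replicate 4 out. Replicate numbers did not pair the samples: same-numbered libraries had correlations of -0.0284 to 0.0195 over 18 pairs, and 1 of 12 libraries correlated best with its own number. Depth limits the values of Esrp1, Grhl2, Twist2 and Prrx1 in pHeps, which rest on 2 to 8 counts over 2 libraries.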
